A study of Mus musculus with 30 samples.

Results

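CC chemokines are small secreted proteins with a pair of adjacent cysteines near the amino terminus, and they steer leukocytes that carry CC receptors. Described here are 9 of the 32386 gene symbols in the annotation: *Ccl2*, *Ccl5*, *Ccl7*, *Ccl8*, *Ccl11*, *Ccl19*, *Ccl20*, *Ccl21a* and *Ccl25*. They were picked by name, as family members known from stroma or epithelium of the gut. Earlier results of these data were known at that point, but none was picked on a test statistic. *Ccl2* and *Ccl7* attract monocytes through CCR2, *Ccl8* lies in the same gene cluster, *Ccl11* encodes eotaxin-1 and attracts eosinophils through CCR3, and *Ccl5* attracts T cells and other leukocytes. *Ccl19* and *Ccl21a* encode CCR7 ligands of lymphoid tissue and lymphatic vessels. *Ccl20* (CCR6 ligand) and *Ccl25* (CCR9 ligand) are best known from intestinal epithelium.

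The series asked how fibroblasts (FB) and mural cells of the mouse gut differ in their transcription between populations and between small intestine and colon. It holds 30 bulk RNA-seq libraries, 3 from each of 10 populations sorted from untreated C57BL6/Nrj mice aged 8 to 10 weeks. Peyer's patches, muscularis externa and epithelium were removed before digestion, and dead, CD45+, Ter119+, CD31+, BP3+, EpCAM+ and NCAM hi cells were left out of the sort. RNA was amplified before unstranded library preparation, so reads of genes that overlap on opposite strands cannot be told apart.

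Pericytes were sorted as PDGFRα-ESAM-1+PDPN- cells in both tissues. In small intestine the other gates were PDGFRα-ESAM-1+PDPN+ for smooth muscle cells (SMC), and among ESAM-1- cells PDGFRα hiCD34- for PDGFRα hi FB, PDGFRα intCD34- for Fgfr2+ FB and PDGFRα intCD34+ for CD34+ FB. In colon all FB gates were again ESAM-1-. They were PDPN+CD34- for PDGFRα hi FB, CD34+PDPN hiCD90- for Fgfr2+ FB, CD34+PDPN hiCD90+ for CD90+ FB and CD34+PDPN intCD90- for CD81+ FB. The Fgfr2+ and PDGFRα hi gates therefore differ between the tissues, and a tissue comparison of these populations compares gates as well as location.

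The libraries hold 2221744 (small intestinal Fgfr2+ FB, replicate 3) to 18814832 (colonic CD90+ FB, replicate 1) estimated counts on annotated genes. Levels are counts scaled to library size (CPM) with TMM factors over all 30 libraries, given as mean ± SD of n = 3. Genes are ranked against one another only after division by effective length (CPM per kb). A floor of 3 counts corresponds to 0.1411 to 1.102 CPM depending on the library and covers counting error only. Tests are quasi-likelihood tests of edgeR, and called genes have p under 0.05 after Benjamini-Hochberg adjustment together with an absolute log2 fold change above 1.5. In bulk samples, fewer cells of a type and less RNA per cell cannot be told apart.

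Marker lists served as a partial check of the population labels. All but the SMC list include genes of the sort gates (*Esam*, *Pdgfra*, *Pdpn* or *Cd34*), so their sums depend in part on the sort. No list was made for Fgfr2+ or CD90+ FB, and those labels were not checked in this way. The pericyte list (6 genes, most abundant *Rgs5*) summed to 38210.0 CPM in pericytes of small intestine and 38560.0 CPM in those of colon, to 5788 CPM in SMC and to 65.0 to 3879 CPM in the FB populations. The SMC list (5 genes, *Acta2*) was highest in SMC, at 19940.0 CPM, and summed to 10530.0 CPM in pericytes of colon and 3422 CPM in those of small intestine. The list for PDGFRα hi FB (5 genes, *Pdgfra*) reached 10350.0 and 6420.0 CPM in these FB of small intestine and colon, and 74.47 to 1492 CPM elsewhere. In those of small intestine *Pdgfra*, a gate gene there, alone gave 6362 CPM. The CD34+ and CD81+ FB list (6 genes, *Dpt*) was highest in colonic CD81+ FB (10190.0 CPM) and small intestinal CD34+ FB (6673 CPM). A general FB list (6 genes, *Dcn*) summed to 14200.0 to 57130.0 CPM in the FB populations, 7983 CPM in SMC, and 1802 and 3106 CPM in the pericytes.

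*Ccl11* made up nearly all of the CC chemokine signal. It collected 257259 counts over the 30 libraries, 95.66% of the counts on the 9 genes. *Ccl25* collected 3503 counts, *Ccl2* 3459, *Ccl7* 1709, *Ccl21a* 966, *Ccl8* 842, *Ccl19* 679 and *Ccl5* 501. *Ccl20* had 1 count in 1 library, colonic pericytes replicate 2, and was never tested. Per kb, *Ccl11* was 86.68% (small intestinal pericytes) to 99.34% (SMC) of the sum of the 9 genes in 9 of the populations. The exception was colonic PDGFRα hi FB, where its share was 33.76 ± 16.82%.

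*Ccl11* was most abundant in SMC, with 2217, 2825 and 3855 CPM in replicates 1 to 3 (2965 ± 827.8). Small intestinal Fgfr2+ FB followed with 2635, 1366 and 1008 CPM (1670.0 ± 854.8), and small intestinal PDGFRα hi FB with 1205, 1031 and 821.3 CPM (1019 ± 192.3). Then came small intestinal pericytes at 526.2, 847.7 and 508.0 CPM (627.3 ± 191.1). The range of these pericytes overlaps that of colonic Fgfr2+ FB, and by the deposited TPM they rank below colonic Fgfr2+ and CD81+ FB (545.5 against 728.3 and 556.1). Colonic Fgfr2+ FB had 618.1, 565.2 and 514.3 CPM (565.9 ± 51.89), and colonic CD81+ FB 381.3, 461.0 and 668.7 CPM (503.6 ± 148.4). Small intestinal CD34+ FB, with 318.5, 389.4 and 272.8 CPM (326.9 ± 58.77), sat between these and colonic CD90+ FB with 172.8, 459.5 and 311.8 CPM (314.7 ± 143.4). By the deposited TPM they rank below colonic CD90+ FB (300.7 against 427.3). Colonic pericytes had 172.7, 291.9 and 164.3 CPM (209.7 ± 71.35).

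Colonic PDGFRα hi FB stood far below the rest. Their *Ccl11* levels were 6.982, 21.78 and 15.35 CPM (14.7 ± 7.42), on 57, 166 and 113 counts. Every other neighbouring pair in the order has overlapping ranges, so only this last step separates adjacent populations. Per kb, *Ccl11* ranked 16th among all genes in small intestinal Fgfr2+ FB, 19th in SMC and 33rd in small intestinal PDGFRα hi FB. In colonic PDGFRα hi FB it ranked 5082nd of 18309 genes with counts.

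**Figure D1:**
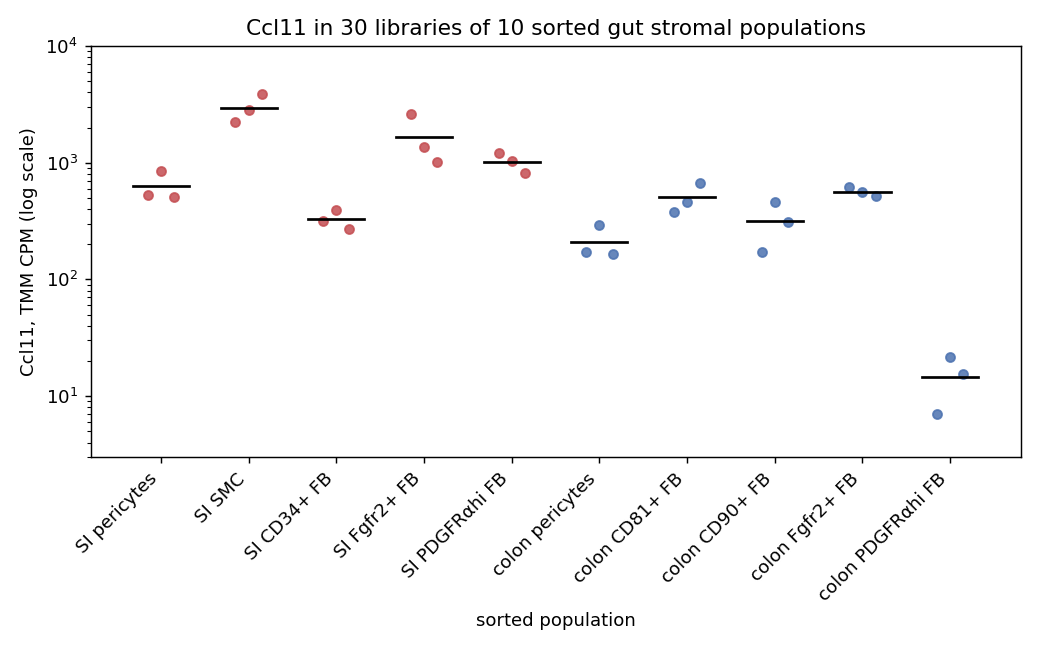
*Ccl11* in CPM (log scale) in the 10 sorted populations; each point is a library, the black line is the mean of n = 3, red is small intestine and blue is colon. SMC have the highest mean (2965 CPM) and colonic PDGFRα hi FB the lowest (14.7 CPM).

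PDGFRα hi FB of the tissues differed in *Ccl11* more than in any other member. All 3 small intestinal libraries lay above all 3 colonic libraries, and the ratio of means was 69.31. The other tested members had overlapping ranges between the tissues, with *Ccl7* at 10.21 ± 5.043 CPM in small intestine against 3.927 ± 4.652 CPM in colon. In the fit of the 12 libraries of Fgfr2+ and PDGFRα hi FB, *Ccl11* had a log2 fold change of 6.13 (standard error 0.45; edgeR quasi-likelihood test, Benjamini-Hochberg adjusted p = 2.33e-06). It was the only call among 8 tested members, against 1.76% of 15677 tested genes. A full permutation of 3 against 3 libraries cannot go below p = 0.1, so the small p rests on the dispersion model.

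In Fgfr2+ FB the tissue difference in *Ccl11* was smaller, 2.951-fold between means, although no colonic library reached the lowest small intestinal library. *Ccl21a* stood further apart, at 21.04 ± 15.06 CPM in small intestine and 0.3847 ± 0.1314 CPM in colon, the latter on 5, 3 and 3 counts. *Ccl25* was 20.31 ± 16.47 against 7.025 ± 2.948 CPM with overlapping ranges. *Ccl7* leaned the other way, 2.713 ± 2.371 against 8.771 ± 2.412 CPM, and every small intestinal library lay below every colonic library. Among 8 tested members edgeR called 1, *Ccl11* (log2 fold change 1.58, standard error 0.37, Benjamini-Hochberg adjusted p = 0.0267), against 3.09% of all tested genes. *Ccl21a* had the larger log2 fold change of 5.74 with an adjusted p of 0.0507 in the same edgeR quasi-likelihood test with Benjamini-Hochberg adjustment, and DESeq2 called both genes.

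The *Ccl11* call in Fgfr2+ FB hung on single libraries. It ended when colonic Fgfr2+ FB replicate 1 (log2 fold change 1.64), replicate 2 (1.58) or replicate 3 (1.52) was left out, at edgeR quasi-likelihood p of 0.0716, 0.0953 and 0.104 after Benjamini-Hochberg adjustment. It also ended without small intestinal Fgfr2+ FB replicate 1, the library with 2635 CPM, where the log2 fold change was 1.09 (Benjamini-Hochberg adjusted p = 0.11 from edgeR's quasi-likelihood test). The direction held in each case. *Ccl21a* was called instead when that small intestinal library was left out.

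The tissue difference in *Ccl11* was therefore unequal in the 2 FB populations. The interaction, Fgfr2+ FB tissue difference minus PDGFRα hi FB tissue difference, was −4.55 log2 units for *Ccl11* (standard error 0.54; edgeR quasi-likelihood, Benjamini-Hochberg adjusted p = 0.000387). It was the only call among 8 tested members, against 1.28% of all tested genes. *Ccl21a* pointed the other way at 7.71 log2 units without being called (Benjamini-Hochberg adjusted p = 0.0777, edgeR quasi-likelihood test), while DESeq2 called it. Of these FB of colon, *Ccl11* was low in PDGFRα hi FB alone. *Ccl21a* had 5, 3 and 3 counts in Fgfr2+ FB and 6, 92 and 5 in PDGFRα hi FB, so it was low in both apart from replicate 2 of the latter.

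Within small intestine, Fgfr2+ and PDGFRα hi FB were close for *Ccl11*, with a ratio of means of 1.638 and overlapping ranges. *Ccl21a* was 21.04 ± 15.06 CPM in Fgfr2+ FB and 1.138 ± 1.488 CPM in PDGFRα hi FB, and its 3 libraries in Fgfr2+ FB lay above all 3 of PDGFRα hi FB. *Ccl7* was higher on average in PDGFRα hi FB (10.21 against 2.713 CPM) and *Ccl2* in Fgfr2+ FB (8.682 against 2.006 CPM), each with overlapping ranges. On coding transcripts alone *Ccl2* was close, 2.16 ± 2.363 CPM in Fgfr2+ FB against 1.658 ± 1.297 CPM in PDGFRα hi FB. edgeR called 0 of 8 tested members against 4.24% of all tested genes. At unadjusted p under 0.05 there was 1 member, *Ccl21a* (log2 fold change 4.21), and DESeq2 called the same 1.

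Within colon, *Ccl11* separated Fgfr2+ from PDGFRα hi FB by 38.48-fold between means, with no overlap of libraries. *Ccl2* also lay apart: 6.424, 22.13 and 33.38 CPM in Fgfr2+ FB against 0.7349, 1.706 and 4.348 CPM in PDGFRα hi FB. *Ccl8* was 3.763-fold higher on average in Fgfr2+ FB, again without overlap. *Ccl25* ran the other way, 7.025 ± 2.948 CPM in Fgfr2+ FB and 16.36 ± 4.315 CPM in PDGFRα hi FB, as did *Ccl21a*, 11.68-fold between means on 5, 3 and 3 against 6, 92 and 5 counts. edgeR called *Ccl11* alone (log2 fold change 5.27, standard error 0.44, quasi-likelihood test, Benjamini-Hochberg adjusted p = 5.75e-06), 1 of 8 tested members against 2.27% of all tested genes. *Ccl2* had a log2 fold change of 3.19 and an adjusted p of 0.154 by edgeR's quasi-likelihood test with Benjamini-Hochberg adjustment, and DESeq2 called it.

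Across all 5 small intestinal populations edgeR called 2 of 8 tested members, *Ccl11* and *Ccl21a*, against 15.8% of 16237 tested genes, and DESeq2 added *Ccl2*. SMC had more *Ccl11* than the FB on average, 2965 CPM against 1005 ± 728.7 CPM over 9 FB libraries, a ratio of 2.95. The ranges overlapped, because Fgfr2+ FB replicate 1 exceeded SMC replicate 1. For SMC against the 3 FB populations *Ccl11* was the only call of 8 tested members (log2 fold change 1.80, standard error 0.27, edgeR quasi-likelihood test, Benjamini-Hochberg adjusted p = 0.000414), against 4.68% of all tested genes. *Ccl2* was low in SMC, with 3.726, 0 and 0.2316 CPM, and was not called.

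CD34+ FB had the least *Ccl11* of the small intestinal populations, and each of their libraries lay below each Fgfr2+ FB library. The ratio of means between these FB was 5.108. *Ccl2* leaned the opposite way, 14.64 to 18.6 CPM in CD34+ FB against 1.519, 13.5 and 11.02 CPM in Fgfr2+ FB. edgeR called *Ccl11* only (log2 fold change −2.33 for CD34+ minus Fgfr2+ FB, standard error 0.37, quasi-likelihood test, Benjamini-Hochberg adjusted p = 0.00475), 1 of 8 tested members against 0.899% of all tested genes.

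For small intestinal pericytes against FB, the calls fell on *Ccl21a* and, through 1 library, on *Ccl5*. *Ccl21a* had 0 counts in all 3 pericyte libraries, against 8.986 ± 12.02 CPM in the 9 FB libraries, at least 20.08-fold above the floor. PDGFRα hi FB replicates 1 and 2, with 4 and 1 counts of it (0.5259 and 0.05423 CPM), cannot be told from these pericytes, and Fgfr2+ FB replicates 2 and 3 carry most of the FB mean. *Ccl8* also had 0 counts in all 3, against 3.255 ± 4.978 CPM, at least 7.274-fold above the floor but with overlapping ranges. Fgfr2+ FB replicate 1, with 14.71 CPM of *Ccl8*, carries much of that mean, and the bound is smaller without it. *Ccl7* had 0, 2 and 0 counts there. edgeR called 2 of 8 tested members, *Ccl21a* and *Ccl5*, against 15.2% of all tested genes. At unadjusted p under 0.05 there were 6 members. Of these *Ccl2* (log2 fold change 1.94), *Ccl5* and *Ccl19* (3.46) were higher in pericytes, and *Ccl7*, *Ccl8* and *Ccl21a* lower. DESeq2 called 3, *Ccl7*, *Ccl8* and *Ccl21a*, without *Ccl5*. For *Ccl21a* the fitted log2 fold change was −8.53 (standard error 2.07, quasi-likelihood test, Benjamini-Hochberg adjusted p = 0.011), a size that depends on the prior count. *Ccl11* was not called there (log2 fold change −0.36).

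The *Ccl5* call came from 1 library. Small intestinal pericytes replicate 1 had 301 counts (61.65 CPM), all assigned to a retained-intron transcript, and replicates 2 and 3 had 0. Its log2 fold change for pericytes over FB was 5.35 (standard error 1.43, edgeR quasi-likelihood test, Benjamini-Hochberg adjusted p = 0.0166). Without that library the fold change turned to −5.38 and the call ended (edgeR quasi-likelihood, Benjamini-Hochberg adjusted p = 0.165). With all libraries and a replicate block, the log2 fold change was 4.05 and the call also ended. Elsewhere *Ccl5* means were 1.18 ± 1.644 CPM in colonic CD90+ FB, 1.058 ± 0.8966 CPM in Fgfr2+ FB of small intestine and 0.9339 ± 1.062 CPM in those of colon. They were 0.5082 ± 0.378 CPM in small intestinal CD34+ FB, 0.499 ± 0.6881 in SMC, 0.3656 ± 0.3642 in colonic pericytes, 0.2186 ± 0.2861 in small intestinal PDGFRα hi FB, 0.2091 ± 0.1871 in CD81+ FB and 0.1299 ± 0.006787 in colonic PDGFRα hi FB. CD81+ FB had 1, 2 and 5 counts, and colonic PDGFRα hi FB 1 count in each library, under the floor of 3 counts. The order of such low means and that small SD therefore cannot be read. All neighbouring populations overlapped.

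Whether other cells contributed to the *Ccl5* counts was not tested. T and NK cell markers summed to 22.94, 57.74 and 50.02 CPM in pericyte replicates 1 to 3, with 2, 2 and 3 of 7 markers above 0, *Cd3d* most abundant and *Cd3g*, *Nkg7*, *Gzma* and *Gzmb* at 0 in all 3. B and plasma cell markers summed to 203.4, 11.79 and 15.87 CPM (2, 4 and 4 of 6 above 0, *Cd79a* most abundant), highest in the library with *Ccl5*. Myeloid markers summed to 219.8, 82.53 and 66.38 CPM in the same libraries (2, 4 and 5 of 12 above 0), of which *Cd68* alone gave 217.7, 72.93 and 41.42 CPM.

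*Ccl2* was most abundant in small intestinal pericytes, with 15.98, 36.34 and 21.44 CPM (24.59 ± 10.54). Next in order were colonic Fgfr2+ FB (20.65 ± 13.54), colonic CD81+ FB (17.63 ± 6.349), small intestinal CD34+ FB (16.08 ± 2.192), colonic CD90+ FB (11.88 ± 5.597) and small intestinal Fgfr2+ FB (8.682 ± 6.326). Colonic pericytes (3.248 ± 4.534), colonic PDGFRα hi FB (2.263 ± 1.87), small intestinal PDGFRα hi FB (2.006 ± 1.608) and SMC (1.319 ± 2.088) were lowest. No neighbouring pair in this order is separate. In both tissues PDGFRα hi FB had less than the FB sorted as CD34+. By the deposited TPM the highest population was colonic Fgfr2+ FB.

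*Ccl7* and *Ccl8* had at most 2 counts in any pericyte library, and varied widely between the libraries of most other populations. *Ccl7* was highest in colonic CD81+ FB, where replicate 1 had 0.161 CPM and replicates 2 and 3 had 19.86 and 19.24 CPM (13.09 ± 11.2). Small intestinal PDGFRα hi FB (10.21 ± 5.043), colonic Fgfr2+ FB (8.771 ± 2.412), colonic CD90+ FB (4.083 ± 2.739) and colonic PDGFRα hi FB (3.927 ± 4.652) followed. SMC had 0, 0 and 10.07 CPM (3.358 ± 5.816), the last on 87 counts. Small intestinal Fgfr2+ FB (2.713 ± 2.371) and CD34+ FB (0.673 ± 0.2558) came next. Only colonic Fgfr2+ over CD90+ FB are separate neighbours, because the 5 to 10 counts of small intestinal CD34+ FB lie near the floors of the pericytes below them (0.3634 to 0.6145 CPM).

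*Ccl8* stayed below 10 CPM on average everywhere. Its highest mean, in small intestinal Fgfr2+ FB, rested on 1 library: 14.71, 0.1837 and 0.7349 CPM (5.208 ± 8.229). Colonic Fgfr2+ FB had 6.638, 4.406 and 4.444 CPM (5.163 ± 1.278), the smallest SD relative to the mean among populations with any counts. Small intestinal PDGFRα hi FB (3.869 ± 3.879), colonic CD90+ FB (3.381 ± 1.294), colonic CD81+ FB (2.71 ± 4.694, on 101, 0 and 0 counts) and colonic PDGFRα hi FB (1.372 ± 1.078) followed. Small intestinal CD34+ FB had 0.6887 ± 0.4552 CPM and SMC 0.6742 ± 1.168 CPM. All neighbouring ranges overlap.

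Colonic pericytes had 0, 0 and 1 counts of *Ccl7* and 0, 1 and 0 counts of *Ccl8*, too few for a fold. Over the 12 colonic FB libraries *Ccl7* averaged 7.467 ± 6.691 CPM. The contrast averages PDGFRα hi FB with the others on the log2 scale, and its log2 fold change for *Ccl11* was 0.17. By plain means *Ccl11* was 1.668-fold lower in pericytes, at 209.7 against 349.7 ± 241.6 CPM over the FB libraries, with overlapping ranges. edgeR called 1 of 8 tested members for pericytes against the 4 FB populations, against 16.6% of 16458 tested genes. That gene was *Ccl7*, with a fitted log2 fold change of −7.34 that depends on the prior count (standard error 1.91, quasi-likelihood test, Benjamini-Hochberg adjusted p = 0.0109). *Ccl8* had −5.93 and an adjusted p of 0.0534 by edgeR's quasi-likelihood test with Benjamini-Hochberg adjustment.

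Over all 5 colonic populations 1 of 8 tested members was called, *Ccl11* (edgeR quasi-likelihood, Benjamini-Hochberg adjusted p = 7.63e-06), against 14.8% of all tested genes. CD81+ FB had 6.463 ± 10.04 CPM of *Ccl19* and CD90+ FB 0.1411 ± 0.2444 CPM, yet the former rested on 18.03 CPM in replicate 1 beside 0 and 1.356 CPM. For CD81+ against CD90+ FB edgeR called 0 of 8 tested members against 0.632% of all tested genes, with 1 member, *Ccl19*, at unadjusted p under 0.05 and 0 calls by DESeq2. For CD90+ against Fgfr2+ FB edgeR called 0 of 8 members and 0% of all tested genes, with 0 members at unadjusted p under 0.05 and 0 by DESeq2. The libraries of these FB did not overlap for *Ccl11* (log2 fold change −0.85), *Ccl7* (ratio of means 2.148, higher in Fgfr2+ FB) or *Ccl25* (1.864, higher in CD90+ FB). CD81+ against Fgfr2+ FB was not tested.

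For *Ccl11*, pericytes of the tissues leaned the same way as Fgfr2+ and PDGFRα hi FB, without a call in the fit of the pericyte libraries alone. All 3 small intestinal pericyte libraries lay above all 3 colonic ones, 2.992-fold between means. *Ccl2* was 24.59 ± 10.54 against 3.248 ± 4.534 CPM, also without overlap, and *Ccl19* was at least 36.21-fold above the floor of colonic pericytes, which had 0 counts. edgeR called 0 of the 4 members tested (*Ccl2*, *Ccl11*, *Ccl19*, *Ccl25*) and 0% of 13369 genes. At unadjusted p under 0.05 there were 2, *Ccl11* (log2 fold change 1.63) and *Ccl19* (9.63), and DESeq2 called 1, *Ccl19*. With all 30 libraries in 1 edgeR model 2 were called, *Ccl11* and *Ccl19*.

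*Ccl19* was highest in small intestinal pericytes, with 12.9, 18.23 and 1.453 CPM (10.86 ± 8.574), followed by colonic CD81+ FB. Small intestinal CD34+ FB had a lower but even level of 1.792, 3.477 and 3.953 CPM (3.074 ± 1.135). Small intestinal PDGFRα hi FB had 1.357 ± 1.263 CPM, SMC 0.8915 ± 1.453, colonic Fgfr2+ FB 0.7403 ± 0.6506, colonic PDGFRα hi FB 0.3987 ± 0.4938 and small intestinal Fgfr2+ FB 0.3675 ± 0.6365 CPM. All neighbours overlap. Of its 895 31-mers 58.8% also occur in other genes, most of them in Gm2564 (526), so its counts and their assignment to transcripts are uncertain. In colonic CD81+ FB replicate 1, 223.5 of 224 counts fell on the coding transcript, whereas the coding counts of small intestinal pericytes were 0, 0 and 11.6 of 63, 150 and 12.

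*Ccl21a* was highest in small intestinal Fgfr2+ FB, at 3.866, 27.28 and 31.97 CPM (21.04 ± 15.06). Small intestinal CD34+ FB had 4.781 ± 3.525 CPM, and colonic PDGFRα hi FB 4.495 ± 6.561 CPM, mostly from replicate 2 with 12.07 CPM. SMC (2.085 ± 1.743), colonic CD81+ FB (1.622 ± 1.065), colonic pericytes (1.341 ± 2.323), small intestinal PDGFRα hi FB (1.138 ± 1.488) and colonic CD90+ FB (0.7263 ± 0.6118) lay above colonic Fgfr2+ FB. All neighbours overlap except colonic Fgfr2+ FB and small intestinal pericytes, and that step cannot be read as a separation, because 3 to 5 counts in the former lie near the floors of the latter (0.3634 to 0.6145 CPM). Whether lymphatic endothelium or lymphoid stroma contributed was not tested. In small intestinal Fgfr2+ FB replicates 1 to 3, lymphatic endothelial markers (5 genes, 2, 4 and 2 above 0) summed to 0.2071, 8.451 and 2.205 CPM. Lymphoid stroma markers (6 genes, 4 above 0 in each, *Tnfsf13b* most abundant, *Madcam1* and *Tnfsf11* at 0) summed to 315.8, 136.6 and 237.7 CPM. Their mean was highest in this population (230.0 CPM), before colonic CD90+ FB (207.8), and was 48.46 CPM in small intestinal PDGFRα hi FB. edgeR called 2 of 4 tested higher in Fgfr2+ than in PDGFRα hi FB of small intestine (4.24% of all tested genes). It called 1 of 4 higher in the interaction (1.28%) and 0 of 4 between tissues in Fgfr2+ FB (3.09%). In PDGFRα hi FB it called 1 of 4 lower in small intestine than in colon (1.76%).

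Counts of *Ccl21a* cannot be separated cleanly from its copies on chromosome 4. Of its 840 31-mers, 80.6% also occur in other genes, most of them in Gm21541 (677) and Gm13304 (668). Gm21541 itself received 772.1 estimated counts and Gm13304 180.1. The transcripts Ccl21a-201 and Gm21541-201 have 870 bases each and differ at 6, of which 2 are coding: T159A and C269T, numbered from the 5′ end of the transcript with the *Ccl21a* base given before the position. These windows, shown because they are the coding bases that tell the genes apart, give the transcribed strand in GRCm38 with the differing base in capitals. T159A lies at chr4:42773733-42773761 (−) and chr4:41903842-41903870 (+), and C269T, over an exon junction, at chr4:42773529-42773651 (−) and chr4:41903952-41904074 (+).
Ccl21a T159A: agtgatggagggggTcaggactgctgcct
Gm21541 T159A: agtgatggagggggAcaggactgctgcct
Ccl21a C269T: ggcaatcctgttctCaccccggaagcact
Gm21541 C269T: ggcaatcctgttctTaccccggaagcact

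*Ccl25* had overlapping ranges between all neighbours in CPM. Its highest mean, in small intestinal Fgfr2+ FB, spread over 5.178, 17.91 and 37.85 CPM (20.31 ± 16.47). That population was 1.73 times the mean of 10 populations in CPM and 3.53 times by the deposited TPM. The rest ran from colonic PDGFRα hi FB (16.36 ± 4.315) over colonic CD90+ FB (13.1 ± 3.013), small intestinal CD34+ FB (13.01 ± 2.217) and small intestinal PDGFRα hi FB (11.09 ± 3.853) to SMC (9.859 ± 1.899). Small intestinal pericytes (9.543 ± 11.83), colonic pericytes (9.325 ± 5.954), CD81+ FB (7.695 ± 5.088) and colonic Fgfr2+ FB (7.025 ± 2.948) were lowest. In the test among 5 populations its adjusted p was 0.913 in small intestine and 0.694 in colon (edgeR quasi-likelihood, Benjamini-Hochberg). Carry-over of epithelium was not tested. Epithelial markers (11 genes; 3, 4 and 4 above 0; *Lgals4* most abundant) summed to 73.53, 6.063 and 9.554 CPM in replicates 1 to 3 of small intestinal Fgfr2+ FB.

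**Figure D2:**
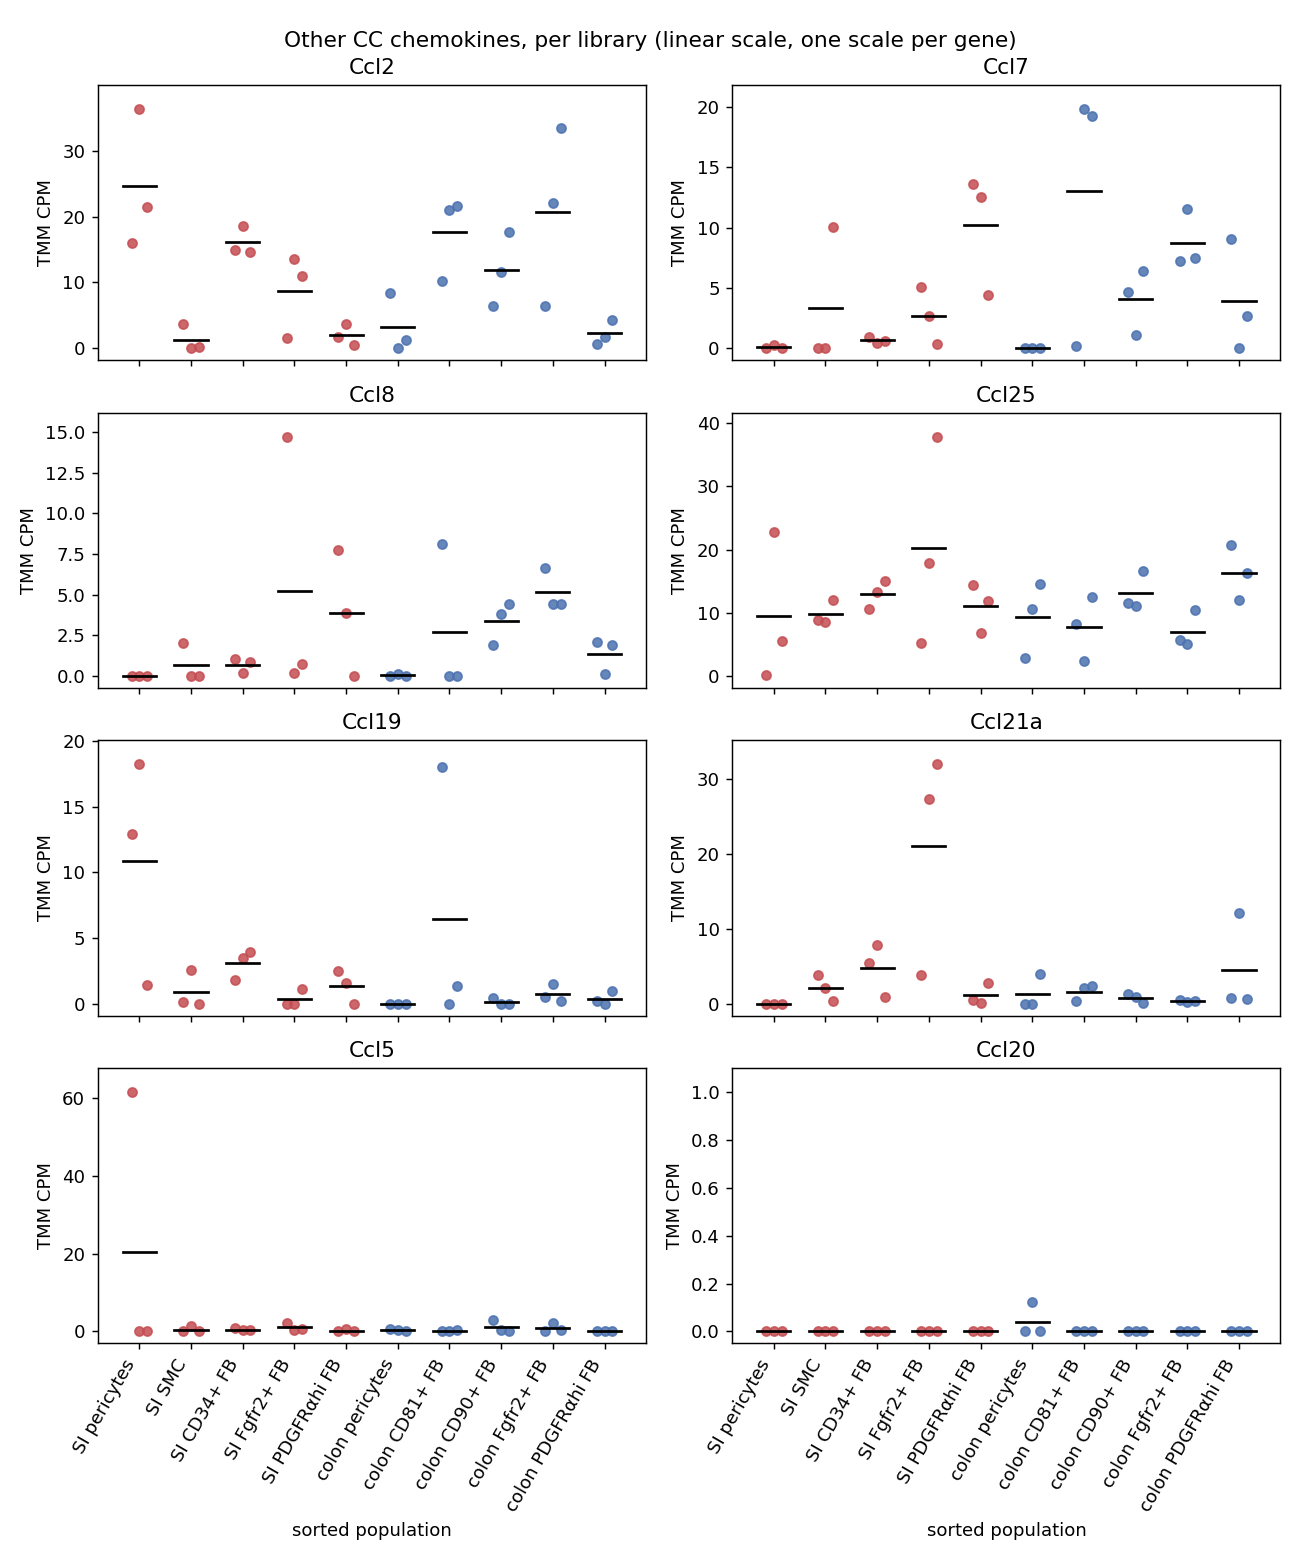
CPM of the other 8 members in the 10 populations, on a linear axis with its own scale per gene; each point is a library, lines are means of n = 3, red is small intestine and blue is colon. *Ccl2* is highest in small intestinal pericytes (24.59 CPM), *Ccl21a* in small intestinal Fgfr2+ FB (21.04 CPM), and the *Ccl5* mean of 20.55 CPM rests on 1 library.

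Much of the low-abundance signal was assigned to transcripts that do not encode the protein. Retained-intron transcripts held 80.3% of *Ccl25* counts and coding transcripts 11.3%. For *Ccl5*, 93.2% fell on a retained-intron transcript, for *Ccl2* 47.1%, and for *Ccl19* 62.0% fell on a processed transcript. Neighbours on the opposite strand add doubt in an unstranded library. *Ccl2* lies wholly within Gm17268 (92 counts), *Ccl19* and *Ccl21a* lie within 4930578G10Rik (2141 counts), and the 5′ end of *Ccl25* overlaps *Elavl1* by 204 bases (21602 counts).

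**Figure D3:**
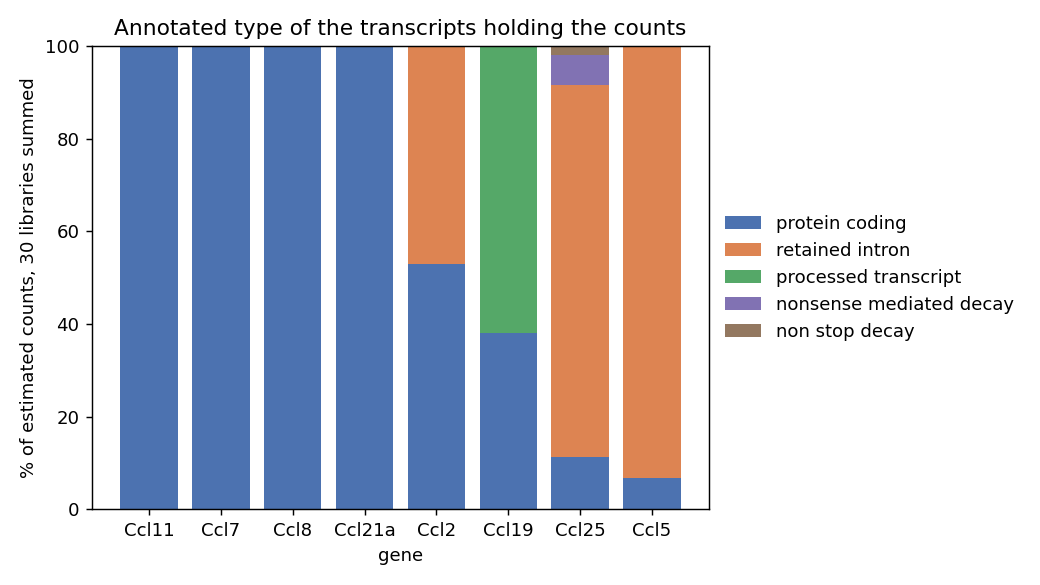
Percent of estimated counts over all 30 libraries by annotated transcript type, stacked to 100 for each of 8 members. Retained introns hold 93.2% of *Ccl5* and 80.3% of *Ccl25* counts.

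Most *Ccl25* counts lie on Ccl25-210 (chr8:4332259-4334807, 58.2%) and Ccl25-209 (chr8:4325233-4327693, 22.2%), both upstream of the coding transcripts that start at chr8:4349588. RefSeq promoter windows of 300 bases (GRCm38, plus strand) exist for the upstream start (chr8:4324960-4325259, 74.0% GC, 52 CpG) and for the downstream start (chr8:4349338-4349637, 51.7% GC, 1 CpG). Among 5 motifs sought on both strands, the downstream window holds TATAAA, which 13.6% of 32851 promoter windows hold, and the upstream window holds none of the 5.

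Of the 9 members, 5 have such a promoter window, *Ccl8*, *Ccl19*, *Ccl20*, *Ccl21a* and *Ccl25*. The letters of AP-1 (TGANTCA; 7.81% of all windows), GAS (TTC and GAA with a gap of 3; 8.3%) and the STAT6 palindrome, with a gap of 4 (6.95%), are not in any of them. A kappaB motif is in the *Ccl20* window (4.51% of all windows) and TATAAA in that of *Ccl8*. The absence of a motif says only that these letters are not in the window.

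*Ccl2*, *Ccl7*, *Ccl11* and *Ccl8* lie within 81.2 kb (chr11:82035571-82116799). In GRCm38 they are all on the plus strand, with *Ccl11* at chr11:82057823-82062955. *Ccl5* lies at chr11:83525778-83530518 (−), *Ccl20* at chr1:83116766-83119167 (+), and *Ccl19* and *Ccl21a* at chr4:42754525-42756577 (−) and chr4:42772860-42773993 (−). Over the 30 libraries *Ccl7* and *Ccl8* had the highest r of all member pairs, 0.4047 (rho 0.3702, n = 30), and *Ccl2* and *Ccl7* r = 0.1034, *Ccl7* and *Ccl11* r = 0.07158, and *Ccl2* and *Ccl11* r = −0.01086. *Ccl21a* and *Ccl25* had r = 0.3907 (rho 0.336), *Ccl2* and *Ccl19* r = 0.3546 (rho 0.3691), and *Ccl5* and *Ccl25* the lowest r, −0.6487 (rho −0.4094). That last value leans on small intestinal pericytes replicate 1, with the most *Ccl5* (61.65 CPM) and the least *Ccl25* (0.2048 CPM) of the 30 libraries. The points of each correlation share library and depth, so these values describe the libraries and test nothing.

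The gene most like *Ccl11* over the 30 libraries was *Akap12* (r = 0.8827, rho 0.7304), before *Pros1* (0.715, 0.6685) and *Galnt17* (0.6854, 0.6093). *Ccl2* was closest to *Tom1* (0.8193, 0.7223), *Icam1* (0.7521, 0.7122) and *Smpdl3a* (0.7379, 0.7425). *Ccl7* came nearest to *Tbrg1* (0.7351, 0.765), *Sh3glb1* (0.7172, 0.773) and *Mfsd5* (0.6995, 0.7295), and *Ccl25* to *Smug1* (0.8434, 0.701), *Zbed3* (0.7973, 0.6676) and *Utp15* (0.7825, 0.4131). *Ccl19* paired with *Ccdc191* (0.7589, 0.8383), *Lrp5* (0.7464, 0.7302) and AC132444.1 (0.6777, 0.6129). *Ccl21a* had *Kcnj3* (0.7127, 0.7101), Gm8995 (0.679, 0.6392) and Gm8369 (0.6789, 0.6495). For *Ccl5*, where rho drops well below r, they were *Abra* (0.7651, 0.4478), Gm16284 (0.7357, 0.2586) and Gm21451 (0.7335, 0.2457).

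Other CC chemokines were low as well. Of 17 further family genes 16 are in the table, with *Ccl27a* most abundant, and they summed to 11.57 to 43.8 CPM per library. Only 6 were tested (4 between pericytes of the tissues), and *Ccl27a* was the only call, 1 of 6 in a comparison that called 15.2% of all tested genes (log2 fold change −5.34 in small intestinal pericytes against FB, edgeR quasi-likelihood, Benjamini-Hochberg adjusted p = 0.00879), with 0, 0 and 0.8479 CPM in pericytes against means of 12.33 to 13.9 CPM in the FB populations. Among the signalling CC receptors *Ccr2* was the only call, 1 of 5 tested for colonic pericytes over FB, where 16.6% of all tested genes were called (log2 fold change 1.96, edgeR quasi-likelihood, Benjamini-Hochberg adjusted p = 0.036).

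Atypical receptors that bind CC or related chemokines (5 genes, *Ackr4* most abundant, sums 43.85 to 884.4 CPM) differed between several populations. edgeR called 3 of 4 tested among the 5 small intestinal populations (15.8% of all tested genes), 1 of 4 in the tissue comparison of PDGFRα hi FB (1.76%) and 1 of 4 in the interaction (1.28%). For pericytes against FB it called 2 of 4 in small intestine (15.2%) and 2 of 5 in colon (16.6%), and for SMC against FB 1 of 4 (4.68%). For CD34+ against Fgfr2+ FB it called 1 of 4 (0.899%). For Fgfr2+ against PDGFRα hi FB it called 1 of 4 in small intestine (4.24%) and 1 of 4 in colon (2.27%). Between tissues it called 0 of 4 for Fgfr2+ FB (3.09%) and 0 of 4 for pericytes (0%). It called 0 of 5 between CD81+ and CD90+ FB (0.632%) and between CD90+ and Fgfr2+ FB of colon (0%). *Ackr4* was 463.1, 408.2 and 378.7 CPM in small intestinal CD34+ FB and 2.14, 3.031 and 4.409 CPM in Fgfr2+ FB, the reverse of *Ccl11* (log2 fold change 7.11, edgeR quasi-likelihood, Benjamini-Hochberg adjusted p = 2.08e-05). *Ackr4* is also 1 of the 6 genes of the CD34+ and CD81+ FB marker list. In PDGFRα hi FB *Ackr3* was also the reverse of *Ccl11*, at 3.681, 2.061 and 2.268 CPM in small intestine and 51.94, 45.53 and 72.69 CPM in colon. Its log2 fold change was −4.40 there, with an interaction of 4.58 (edgeR quasi-likelihood tests, Benjamini-Hochberg adjusted p = 1.25e-05 and 0.000342), and 5.29 for Fgfr2+ over PDGFRα hi FB of small intestine. *Ackr4* was lower in small intestinal pericytes (log2 fold change −2.51), SMC (−3.24) and colonic pericytes (−4.10) than in the FB. *Ccrl2* was higher in both pericyte populations (1.58 and 2.05) and was −2.87 for Fgfr2+ over PDGFRα hi FB in colon. Whether any of these receptors bears on *Ccl11* was not tested.

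Genes of the pathways that induce CC chemokines (20 genes, *Il6st* most abundant, sums 1795 to 6517 CPM) were tested in the same way. edgeR called 5 of 20 for small intestinal pericytes against FB (15.2% of all tested genes), 2 of 20 for colonic pericytes against FB (16.6%) and 1 of 20 for SMC against FB (4.68%). Between FB it called 3 of 20 for Fgfr2+ against PDGFRα hi FB of small intestine (4.24%), 1 of 20 in the interaction (1.28%), and 0 of 20 for the same FB of colon, CD34+ against Fgfr2+, CD81+ against CD90+ and CD90+ against Fgfr2+ FB. *Il1r1* had an interaction of 2.23 and was higher in Fgfr2+ than in PDGFRα hi FB of small intestine (2.07), where *Il13ra1* was also higher (2.79) and *Ltbr* lower (−1.85). In small intestinal pericytes against FB the largest calls were *Il13ra1* (−7.77), *Ifngr2* (3.12), *Ifngr1* (−2.71) and *Il4ra* (−2.47). *Ifngr2* (2.94) and *Ifngr1* (−2.30) were called in colonic pericytes, and *Ifngr1* (−2.26) in SMC.

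Lists named for other cell types were summed too, and whether their counts come from such cells or from the sorted cells was not tested. Immune markers (16 genes, *Cd68*) summed to 27.32 to 432.0 CPM, endothelial markers (6 genes, *Pecam1*) to 42.84 to 388.0 CPM and lymphatic endothelial markers (*Lyve1*) to 0 to 103.9 CPM. Glial (5 genes, *L1cam*), mesothelial (3 genes, *Wt1*) and interstitial Cajal cell markers (2 genes, *Ano1*) reached 54.28, 15.49 and 1045 CPM, the last almost entirely *Ano1* in pericytes. A dissociation response list (13 genes, *Egr1*) spanned 743.4 to 16610.0 CPM, from a mean of 860.7 CPM in Fgfr2+ FB of small intestine to 12100.0 CPM in pericytes of colon. The lowest means were those of small intestinal Fgfr2+ FB, PDGFRα hi FB (1150.0 CPM) and SMC (1307 CPM), the populations with the most *Ccl11*, and the next lowest was that of colonic PDGFRα hi FB (1985 CPM), with the least. Of the 13 genes edgeR called 10 lower in small intestinal than in colonic Fgfr2+ FB (3.09% of all tested genes), 0 in the tissue comparison of PDGFRα hi FB (1.76%), 2 lower in the interaction (1.28%) and 0 between pericytes of the tissues (0%). Within small intestine it called 12 higher in pericytes than in FB (15.2%), 4 higher in CD34+ than in Fgfr2+ FB (0.899%), 2 lower in SMC than in FB (4.68%) and 1 lower in Fgfr2+ than in PDGFRα hi FB (4.24%). Within colon it called 4 higher in Fgfr2+ than in PDGFRα hi FB (2.27%), 5 higher in CD81+ than in CD90+ FB (0.632%), 0 between CD90+ and Fgfr2+ FB (0%) and 5 higher in pericytes than in FB (16.6%). Whether this response bears on the levels of *Ccl11* or the other members was not tested.

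The tests compare 3 libraries per population and measure spread between samples. The labels do not state which libraries came from the same animals. Sorted FB populations share gates only in part between the tissues, and RNA levels say nothing about secreted protein. *Ccl5*, *Ccl7*, *Ccl8*, *Ccl19* and *Ccl21a* rest on few counts, often of 1 library, and those of *Ccl5*, *Ccl19* and *Ccl21a* also on non-coding transcripts or shared sequence. Retained-intron transcripts hold 80.3% of *Ccl25* and 47.1% of *Ccl2* counts. The *Ccl11* differences between tissues in PDGFRα hi FB, between Fgfr2+ and PDGFRα hi FB of colon, and between CD34+ and Fgfr2+ FB of small intestine combine high counts, separate libraries and calls under every setting tried.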

How the data were processed

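The authors trimmed reads with Trim Galore 0.4.0, inspected them with FastQC 0.11.2 and quantified transcripts with kallisto 0.42.5. The deposited columns used are the estimated count, TPM and effective length of 98492 transcripts, the last serving only for levels per kb. Of these transcripts 97204 match GENCODE M21, which carries 97.83 to 99.21% of the estimated counts. In 28 libraries the transcript with the highest TPM is unmatched, and unmatched transcripts were left out. Estimated counts were summed by gene symbol to 32386 genes and rounded to whole counts. Totals per library were 2245052 to 19096945 (median 9601683).

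edgeR 4.0.16 (R 4.3.3, limma 3.58.1) used TMM normalization, a filter of 6 or more counts in 3 or more libraries of a fit, and quasi-likelihood tests with Benjamini-Hochberg adjustment over all tested genes. Calls need an adjusted p under 0.05 and an absolute log2 fold change above 1.5, or adjusted p alone among 5 populations. Fits held the 12 libraries of Fgfr2+ and PDGFRα hi FB, the 6 of pericytes, and the 15 of each tissue. Tissue differences are small intestine minus colon. Tables were made with Python 3.11.15, pandas 2.3.3 and numpy 2.4.6. Code was tested on simulated counts.

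Alternatives were DESeq2 1.42.0, RLE factors, other count filters, a replicate block, other sets of libraries in the fit, a lower fold threshold, summed *Ccl21a* copies, deposited TPM and each library left out. Counting only coding transcripts and summing *Ccl19* copies were added after the data were seen. The members and the lists (other CC chemokines, receptors, atypical receptors, inducing pathway, cell type markers, dissociation response) were chosen with earlier results of these data known. Every member is named. Some list results are not described because they need items withheld for evaluation. Of the other lists the most abundant gene and up to 4 called genes per comparison, largest log2 fold change first, are named, of marker lists the most abundant gene, and for members averaging at least 10 CPM in a population the 3 most alike genes. Marker genes that are also sort gates are named as well. Markers named at 0 and genes that share sequence or position with members were chosen after values were seen.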

Additional observations from a re-analysis of the deposited data

Results flagged for a closer look

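Among the members and the lists of related chemokines, receptors and inducing pathway genes, a gene is listed here when its difference between small intestine and colon was itself different in Fgfr2+ FB and PDGFRα hi FB, as called by the interaction test of edgeR, which called 201 genes in all. For *Ccl11* the interaction was −4.55 log2 units: small intestine exceeded colon in both FB, by 6.13 in PDGFRα hi FB and by 1.58 in Fgfr2+ FB. For *Ackr3*, an atypical receptor, it was 4.58: small intestinal PDGFRα hi FB had 3.681, 2.061 and 2.268 CPM and colonic 51.94, 45.53 and 72.69 CPM, while Fgfr2+ FB had 101.9, 123.7 and 85.25 CPM and 85.01, 89.29 and 103.9 CPM. For *Il1r1*, which encodes the interleukin-1 receptor, it was 2.23: Fgfr2+ FB had 282.1, 419.9 and 433.2 CPM in small intestine and 231.7, 247.0 and 185.2 CPM in colon, and PDGFRα hi FB 104.7, 98.11 and 67.46 CPM and 205.3, 252.8 and 282.0 CPM.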

How the results depend on the processing

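Counts of called members stayed the same in every alternative for the tissue comparison of PDGFRα hi FB (1), CD34+ against Fgfr2+ FB (1), CD81+ against CD90+ FB (0) and CD90+ against Fgfr2+ FB (0). The log2 fold change of *Ccl11* spanned 6.1 to 6.17 over the alternatives and 5.8 to 6.53 over left-out libraries for the tissue comparison of PDGFRα hi FB, 1.53 to 1.64 and 1.09 to 1.84 for that of Fgfr2+ FB, and −4.61 to −4.47 and −5.05 to −4.22 for the interaction. It spanned 5.24 to 5.28 and 4.93 to 5.66 for Fgfr2+ against PDGFRα hi FB of colon, −2.41 to −2.3 and −2.61 to −1.82 for CD34+ against Fgfr2+ FB, and 1.79 to 1.86 and 1.62 to 1.97 for SMC against FB. For pericytes against FB, *Ccl21a* spanned −9.2 to −7.39 and −8.69 to −7.87 in small intestine, and *Ccl7* −7.48 to −7.28 and −9.26 to −6.93 in colon.

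DESeq2 moved the count of called members from 1 to 2 in the tissue comparison of Fgfr2+ FB and in the interaction (*Ccl21a* added), between Fgfr2+ and PDGFRα hi FB of colon (*Ccl2*) and among 5 colonic populations (*Ccl7*), and from 0 to 1 between the same FB of small intestine (*Ccl21a*) and between pericytes of the tissues (*Ccl19*). It gave 3 in place of 2 for small intestinal pericytes against FB (*Ccl7* and *Ccl8* added, *Ccl5* not called) and among 5 small intestinal populations (*Ccl2* added). RLE factors, either other count filter, or only the compared populations gave 2 for the tissue comparison of Fgfr2+ FB. No count filter gave 2 for the interaction, 3 among 5 colonic populations and 2 for colonic pericytes against FB. The filter of 10 counts in every library of a population also gave 2 there, and gave 1 in place of 2 for small intestinal pericytes against FB, as did coding transcripts only, an alternative chosen after the data were seen. All 30 libraries in 1 model gave 2 for pericytes of the tissues.

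With a library left out, the count was 0 to 2 for the tissue comparison of Fgfr2+ FB and 1 to 2 for the interaction. It was 1 to 3 for small intestinal pericytes, 1 to 2 for SMC and 1 to 2 for colonic pericytes. Among 5 populations it was 2 to 3 in small intestine and 1 to 3 in colon. *Ccl11* in the tissue comparison of Fgfr2+ FB lost its call in 4 of these, and *Ccl5* in small intestinal pericytes turned to −5.38 without replicate 1 and reached 5.95 at most. The cause was not tested.

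The paper describes sorting of both tissues from shared mice and 3 independent experiments, but no label ties a replicate number to a mouse or an experiment, so the samples were not treated as paired. Over 135 pairs with the same number in different populations, deviations from the population mean correlated at a mean r of 0.0088 (−0.1449 to 0.1485), against −0.0037 for other pairs. Of 30 libraries 21 correlate best with their own number, a hint from the data and not the design. A replicate block gave 1 in place of 2 for small intestinal pericytes against FB, with *Ccl5* at 4.05 and no longer called, and changed no other count.

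Over all genes DESeq2 called more than edgeR: 520 against 276 (tissue, PDGFRα hi FB), 1084 against 485 (tissue, Fgfr2+ FB), 561 against 201 (interaction), 1174 against 665 and 650 against 356 (Fgfr2+ against PDGFRα hi FB of small intestine and colon) and 348 against 0 (pericytes of the tissues). The same pairs were 4307 against 2560 and 3863 against 2433 (5 populations of small intestine and colon), 473 against 146 (CD34+ against Fgfr2+ FB), 1212 against 760 (SMC), 420 against 104 (CD81+ against CD90+ FB) and 21 against 0 (CD90+ against Fgfr2+ FB). By deposited TPM the *Ccl25* level of small intestinal Fgfr2+ FB over the mean of 10 populations moved from 1.73 to 3.53.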
